A study of Mus musculus with 4 samples.

Results

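The genes described are 10 osteoblast regulators, bone matrix genes and osteoclast-directed signals: Dlx5, Dlx3, Msx1, Msx2, Sp7, Alpl, Ibsp, Phex, Tnfrsf11b and Tnfsf11. They were chosen by name, with earlier results of these data known. All probe sets that the array annotation maps to 1 of these genes alone were taken, which gave 17 probe sets out of 45037 and 10 genes out of 18193. Of the 10 genes, 7 had 2 probe sets and Dlx5, Sp7 and Alpl had 1, and 0 probe sets named one of these genes together with another gene. Gene expression was measured in OP9M2, a clonal subline of the mouse OP9 stroma that the labels call a supportive mesenchymal stem cell line, and in BFC012, a mouse fibroblast line from fetal liver that does not support human blood progenitors. The comparison addressed what kind of cell OP9M2 is and how it supports blood cells. OP9M2 was grown in 20% serum and BFC012 in 10% serum, so line and serum cannot be told apart, and each group is a single cell line. Cells of both lines received 2000 rad of radiation and were seeded 48 hours ahead of RNA collection, with 25000 cells to the square centimetre. Each line was represented by 2 arrays, which the labels call biological replicates.

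Osteoblasts arise from mesenchymal progenitors under the control of transcription factors. Homeodomain proteins of the Dlx and Msx families act early and bind DNA with a TAAT core, and the zinc-finger factor Sp7 (osterix) is required for osteoblasts to form. The bone matrix is mineralized with the help of the alkaline phosphatase Alpl, the matrix protein Ibsp (bone sialoprotein) and the peptidase Phex, which governs phosphate handling. Osteoblasts and stromal cells also steer osteoclasts, the cells that resorb bone: the ligand Tnfsf11 (RANKL) drives their formation and the secreted decoy receptor Tnfrsf11b (osteoprotegerin) captures that ligand. In bulk samples such as these, fewer cells of a type and less RNA per cell cannot be told apart.

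Values are given on the log2 scale of the arrays. The background level was 6.09 log2 units, taken as the 95th percentile over 81 probe sets for chemosensory receptors (olfactory, vomeronasal and trace amine), genes mainly of sensory neurons. The arrays of BFC012 lay closer together (r = 0.994 across probe sets) than those of OP9M2 (r = 0.980), and OP9M2 replicate 2 stood apart, with a mean of 4.0 over 24 poly-A spike-in control probe sets, against 6.04 to 7.45 on the other 3 arrays. The mean over 3 probe sets of 18S ribosomal RNA was also highest on this array, at 14.2, against 12.7 on OP9M2 replicate 1 and 12.7 and 13.2 on the BFC012 arrays. Across all probe sets 6.31% differed by at least 1 log2 unit between the OP9M2 arrays and 0.646% between the BFC012 arrays. The labels name no batch. Of 9 mesenchymal stroma markers, Col1a2 was called higher and Eng lower in OP9M2, beside 2.36% and 3.56% of all genes, and Thy1 was below background on all arrays. At an unadjusted p under 0.05 in limma 4 were higher and 2 lower, beside 10.5% and 12.8% of all genes. Not called among these were Pdgfra (3.37, adjusted p = 0.0513), Pdgfrb (2.18, adjusted p = 0.109), Vim (0.42, adjusted p = 0.242) and Nt5e (-1.68, adjusted p = 0.176). The blood cell marker Ptprc lay between 4.36 and 4.42 and the liver cell marker Alb between 5.40 and 5.86, below background in both lines, whereas the blood cell markers Csf1r (6.89 to 7.07) and Cd3e (6.50 to 6.80) and the liver cell marker Ttr (7.17 to 7.49) were above it on all 4 arrays. With 1 probe set a gene 0 of 6 blood cell, 5 endothelial and 4 liver cell markers were called (0 at an unadjusted p under 0.05). The summed level of the blood cell markers was 8.65 and 8.94 in OP9M2, against 8.75 and 8.65 in BFC012. The epithelial markers Krt14 and Cdh1, 2 of 6 on that list, were called lower in OP9M2 and 0 higher, beside 3.56% and 2.36% of all genes. Epcam, with the highest mean of the 6, ran the other way but was not called (0.94, adjusted p = 0.307 by limma). It read 10.32 and 9.20 in OP9M2, against 8.73 and 8.90 in BFC012, while its other probe set was below background on all 4 arrays.

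For 6 of the 10 genes a promoter window could be matched, from 250 bases before to 50 bases after the start of the gene (RefSeq, GRCm38.p6). These windows show how differently the genes are built at their starts. Shown are Msx1, a homeodomain gene, and Phex, both with values that differed between the lines in some of the fits, and Ibsp, which was below background. Capitals mark the core TAAT bound by Dlx and Msx proteins, searched on both strands, so that ATTA is the same core read from the other strand. The windows lie at chr5:37824536-37824835 (minus strand, Msx1), chrX:157415237-157415536 (minus strand, Phex) and chr5:104299037-104299336 (plus strand, Ibsp).
Msx1: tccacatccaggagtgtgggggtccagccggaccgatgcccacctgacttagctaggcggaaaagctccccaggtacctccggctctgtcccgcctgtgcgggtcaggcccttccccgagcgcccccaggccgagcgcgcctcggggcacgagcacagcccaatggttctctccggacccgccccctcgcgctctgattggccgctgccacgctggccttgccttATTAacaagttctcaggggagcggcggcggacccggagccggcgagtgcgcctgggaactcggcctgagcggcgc
Phex: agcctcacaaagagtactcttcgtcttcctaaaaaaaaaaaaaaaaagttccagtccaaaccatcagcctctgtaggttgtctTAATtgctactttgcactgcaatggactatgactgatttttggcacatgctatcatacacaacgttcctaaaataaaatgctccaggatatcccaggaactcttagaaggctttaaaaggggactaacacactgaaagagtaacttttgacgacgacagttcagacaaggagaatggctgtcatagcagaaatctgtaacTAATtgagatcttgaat
Ibsp: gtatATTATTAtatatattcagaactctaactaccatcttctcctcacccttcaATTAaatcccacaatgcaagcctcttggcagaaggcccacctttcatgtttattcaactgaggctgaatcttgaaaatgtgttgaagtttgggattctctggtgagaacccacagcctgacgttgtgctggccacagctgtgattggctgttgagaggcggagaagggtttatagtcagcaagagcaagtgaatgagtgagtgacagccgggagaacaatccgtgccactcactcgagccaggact
The Msx1 window held 1 TAAT core, 29 CpG dinucleotides and 70.0% G and C, the Phex window 2 cores and 38.7% G and C, and the Ibsp window 3 cores, 1 TATAAA and 46.3% G and C. Over 32851 mouse promoter windows of the same length the median was 52.7% G and C, 58.03% held at least 1 TAAT core and 13.62% held TATAAA. The Msx2 window held 5 cores and the Tnfsf11 window 0. Such matches describe the letters in the window and are not binding sites.

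Dlx5 and 1 of the 2 probe sets of Tnfrsf11b were higher in OP9M2 than in BFC012, and the other 8 genes had no probe set that passed the test. With limma, 2 of the 17 probe sets were called higher and 0 lower in OP9M2, where a call needs at least a 2-fold difference with adjusted p below 0.05. Over the whole array 1.8% of probe sets were called higher and 2.66% lower. Without the adjustment, 4 of the 17 had p under 0.05 (Dlx5, Tnfrsf11b, Msx1 and Phex, 1 probe set each), with 0 of them lower in OP9M2; of all probe sets 8.88% were higher in OP9M2 at that p. When each gene was read from its brightest probe set (highest average of the 4 arrays), 1 of the 10 genes (Dlx5) was called higher, beside 2.36% of all genes; with any probe set counted, 2 of the 10 were (Dlx5 and Tnfrsf11b), beside 2.84% of all genes. The median difference, OP9M2 minus BFC012, was 0.28 log2 over the 17 probe sets and 0.04 over all probe sets. Both OP9M2 arrays were above both BFC012 arrays for 11 of the 17 probe sets, and the groups overlapped for the other 6; over all probe sets 27.6% were placed with OP9M2 above and 21.9% with OP9M2 below. Because the genes were chosen with earlier results of these data known, these counts are not an independent test of the set. The p-values measure the spread between these arrays, with 2 arrays a line.

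**Figure D1:**
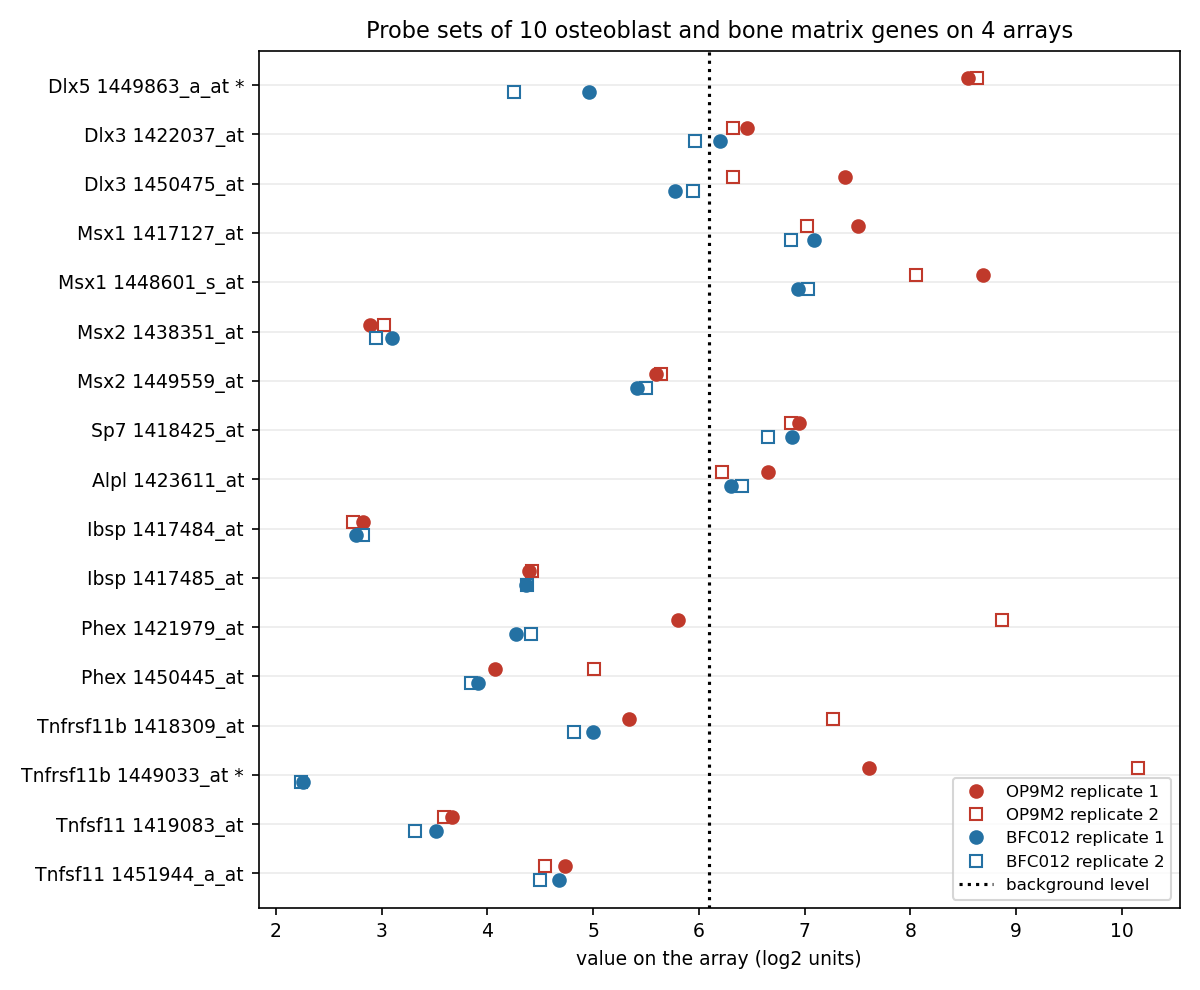
Value in log2 units (horizontal axis) of each of the 17 probe sets (rows) on the OP9M2 arrays (red) and the BFC012 arrays (blue), with replicate 1 as filled circles and replicate 2 as open squares. The dotted line is the background level of 6.09, and an asterisk marks the 2 called probe sets, Dlx5 1449863_a_at and Tnfrsf11b 1449033_at.

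Dlx5, a homeodomain factor that promotes osteoblast differentiation, was well above background in OP9M2 and below it in BFC012. Its probe set 1449863_a_at read 8.55 and 8.63 in OP9M2, against 4.96 and 4.25 in BFC012. The lines did not overlap, and both BFC012 arrays were below background. The difference was 3.98 ± 0.27 log2 (SE, adjusted p = 0.00570 by limma), which is at least 5.63-fold when BFC012 is set to the background level. With the background level at the 99th percentile this bound was 3.35-fold. Without OP9M2 replicate 1 the difference was 4.02 and without OP9M2 replicate 2 it was 3.94, and it was called both times, with the spread taken from the BFC012 pair alone. Without BFC012 replicate 1 or 2 the difference was 4.33 or 3.63, with adjusted p = 0.0837 or 0.0949. In those fits the lone BFC012 array is assumed to vary like the OP9M2 pair, and 0 probe sets of the whole array were called (10.1% and 10.0% had an unadjusted p under 0.05).

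The genes whose pattern over the 4 arrays was most like that of Dlx5 were Cdsn, 2610524H06Rik and Pir, at Euclidean distances of 0.21, 0.37 and 0.39 between values centred on their own means. Cdsn, which encodes corneodesmosin, an adhesion protein of the outer skin, read 9.99 and 10.01 in OP9M2, against 6.59 and 5.87 in BFC012. All 3 were higher in both OP9M2 arrays than in both BFC012 arrays, which the choice by distance to Dlx5 itself brings about.

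Dlx5 lies beside Dlx6 on chromosome 6, and the Dlx genes as a family are arranged in such pairs. Dlx6, the partner of Dlx5 in limb and craniofacial development, read 5.85 and 5.89 in OP9M2, against 4.16 and 4.48 in BFC012. It was called (difference 1.55 ± 0.17, adjusted p = 0.0186), but all 4 arrays were below background, so no fold is given. The pair on chromosome 11 is Dlx3 and Dlx4. Dlx4 1420595_at read 9.63 and 8.72 in OP9M2, against 6.75 and 6.84 in BFC012, and was called (2.38 ± 0.33, 5.20-fold, adjusted p = 0.0340), whereas its probe set 1443591_at differed by 0.85 (adjusted p = 0.284). The pair on chromosome 2 is Dlx1 and Dlx2. Dlx2 read 8.13 and 7.70 in OP9M2, against 9.57 and 9.88 in BFC012, and was lower in OP9M2 (-1.81 ± 0.22, adjusted p = 0.0242). Dlx1, named after its values were seen, read 8.0 and 7.46 in OP9M2, against 8.79 and 9.18 in BFC012, and was not called (-1.25 ± 0.26, adjusted p = 0.0831).

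**Figure D2:**
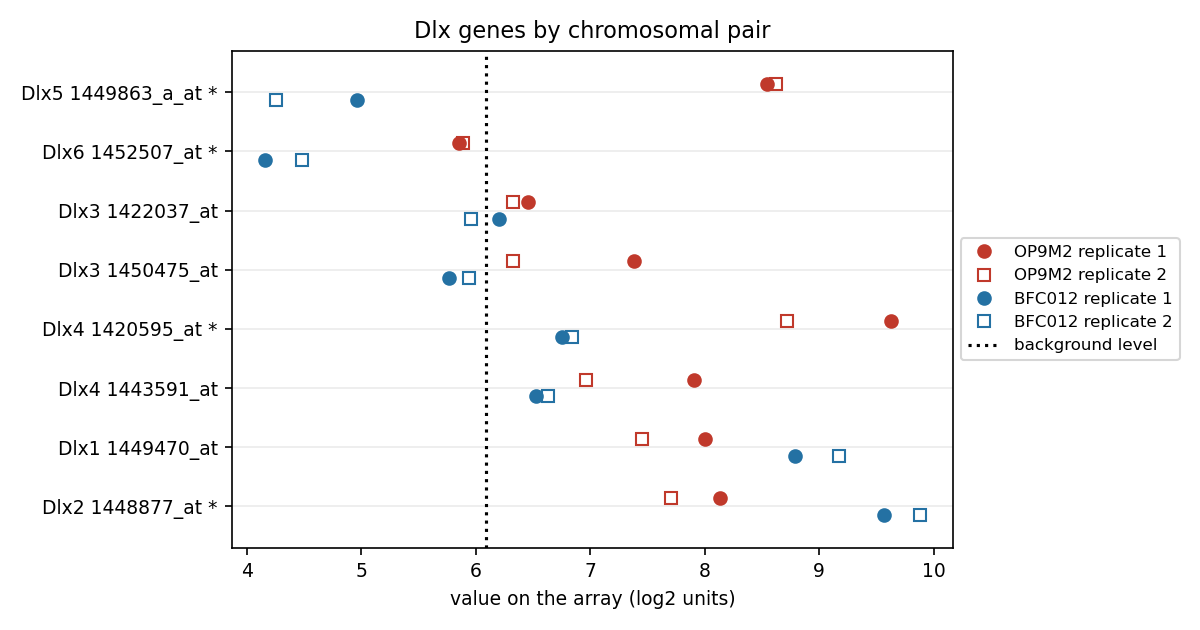
Value in log2 units (horizontal axis) of the probe sets of 6 Dlx genes, grouped by chromosomal pair, on the OP9M2 arrays (red) and the BFC012 arrays (blue), with replicate 1 as filled circles, replicate 2 as open squares, the background level of 6.09 as a dotted line and an asterisk on called probe sets. Dlx5, Dlx6 and Dlx4 1420595_at lie to the right in OP9M2, and Dlx2 lies to the right in BFC012.

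Dlx3, a homeodomain factor of bone, hair and placenta, was not called. Its probe set 1450475_at read 7.38 and 6.32 in OP9M2, against 5.77 and 5.94 in BFC012. Both OP9M2 arrays were above background and both BFC012 arrays below it, but the OP9M2 arrays were 1.05 log2 apart. The difference was 1.00 ± 0.38 (adjusted p = 0.263), at least 1.69-fold. On OP9M2 replicate 2 alone this bound was 1.17-fold and on replicate 1 alone 2.44-fold, and with the background level at the 99th percentile it was 1.00-fold. Without OP9M2 replicate 2 the difference was 1.52 and was called, with the spread of the BFC012 pair alone (SE 0.17). The probe set 1422037_at read 6.45 and 6.32 in OP9M2, against 6.20 and 5.96 in BFC012, a difference of 0.31 ± 0.16 (adjusted p = 0.393).

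Msx1, a homeodomain factor that keeps progenitors proliferating in limb and face, came close to the threshold in 1 of its 2 probe sets. The probe set 1448601_s_at read 8.69 and 8.05 in OP9M2, against 6.94 and 7.03 in BFC012. The groups did not overlap and all 4 arrays were above background. The difference was 1.39 ± 0.25 (2.61-fold, adjusted p = 0.0621) and was not called; it was called in 6 of 15 alternative settings of the processing, of which 2, without OP9M2 replicate 1 (1.07) and without OP9M2 replicate 2 (1.70), took the spread from the BFC012 pair alone. In Affymetrix naming the ending s_at marks probes that match several transcripts. The other probe set, 1417127_at, read 7.50 and 7.03 in OP9M2, against 7.09 and 6.87 in BFC012, so that the groups overlapped (0.28 ± 0.22, adjusted p = 0.577). The 2 probe sets of Msx1 therefore gave different sizes for the same gene.

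Msx2, the relative of Msx1 in skull and tooth development, was below background on every array. Its probe set 1449559_at read 5.60 and 5.64 in OP9M2, against 5.41 and 5.50 in BFC012 (difference 0.16, adjusted p = 0.607), and the probe set 1438351_at differed by -0.07 (adjusted p = 0.874). Sp7 was only a little above background on all 4 arrays, with 6.94 and 6.87 in OP9M2, against 6.88 and 6.65 in BFC012. The groups overlapped, and with the background level at the 99th percentile (6.84) BFC012 replicate 2 was below it. Its difference was 0.14 ± 0.15 (adjusted p = 0.709).

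The mineralization genes Alpl and Ibsp did not pass the test. Alpl read 6.66 and 6.22 in OP9M2, against 6.30 and 6.41 in BFC012, just above background in both lines, and the groups overlapped (0.09 ± 0.20, adjusted p = 0.884). With the background level at the 99th percentile (6.84) Alpl was below it on every array. Ibsp was below background on every array: 1417484_at read 2.82 and 2.73 in OP9M2, against 2.76 and 2.82 in BFC012, and 1417485_at differed by 0.04. Ibsp lies on chromosome 5 between Dmp1 and Mepe, matrix proteins of osteocytes, and neither of these was above background on any array.

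Phex, a cell-surface peptidase of osteoblasts and osteocytes whose loss causes phosphate wasting, was read far apart by the OP9M2 arrays. Its probe set 1421979_at read 5.80 and 8.86 in OP9M2, against 4.27 and 4.41 in BFC012. Only OP9M2 replicate 2 was above background, although both OP9M2 values lay above both BFC012 values. The difference of 2.99 ± 1.03 was not called (adjusted p = 0.224). The gap of 3.06 between the OP9M2 arrays was exceeded by 59 of all probe sets. Without OP9M2 replicate 1 the difference was 4.52 and without OP9M2 replicate 2 it was 1.46, where all values are below background. Both were called, but with the spread of the BFC012 pair alone (SE 0.17, against 1.03 with all arrays), which leaves out the gap between the OP9M2 arrays. The probe set 1450445_at read 4.07 and 5.0 in OP9M2, against 3.91 and 3.84 in BFC012, below background throughout (0.66 ± 0.34, adjusted p = 0.398).

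Tnfrsf11b, the decoy receptor that holds back osteoclast formation, had the widest difference among the 17 probe sets. Its probe set 1449033_at read 7.61 and 10.15 in OP9M2, against 2.25 and 2.23 in BFC012. Both OP9M2 arrays were above background and both BFC012 arrays far below it. The difference was 6.64 ± 0.86 (adjusted p = 0.0287), at least 6.90-fold when BFC012 is set to the background level. This bound was 2.86-fold on OP9M2 replicate 1 alone and 16.6-fold on replicate 2 alone, and 4.10-fold with the background level at the 99th percentile. Without OP9M2 replicate 1 the difference was 7.91 and without OP9M2 replicate 2 it was 5.37, and it was called both times with the spread of the BFC012 pair alone; without BFC012 replicate 1 or 2 it was 6.65 or 6.63, with adjusted p = 0.318 or 0.322. The second probe set, 1418309_at, read 5.34 and 7.27 in OP9M2, against 5.0 and 4.82 in BFC012. It was not called (1.40 ± 0.66, adjusted p = 0.359), and only OP9M2 replicate 2 was above background; without OP9M2 replicate 1 it was 2.36 and was called, again with the BFC012 spread alone. As the brightest on average, 1418309_at stood for the gene, so the call of Tnfrsf11b rests on the other probe set alone. The mean of both probe sets differed by 4.02 and was not called (adjusted p = 0.0547 by limma).

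Tnfsf11, the ligand that Tnfrsf11b captures, was below background on every array. The probe set 1451944_a_at read 4.74 and 4.55 in OP9M2, against 4.67 and 4.50 in BFC012 (0.06, adjusted p = 0.905), and 1419083_at read 3.66 and 3.59 in OP9M2, against 3.52 and 3.32 in BFC012 (0.21, adjusted p = 0.544). Its receptor on osteoclast precursors, Tnfrsf11a, named for this link, was also below background, at 5.75 and 5.72 in OP9M2, against 5.70 and 5.67 in BFC012.

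The gap between the OP9M2 arrays moved with these results. Without OP9M2 replicate 1, 6 of the 17 probe sets were called higher, beside 3.22% of all probe sets, and without OP9M2 replicate 2, 5 of the 17 were, beside 4.84% of all. In these fits the lone OP9M2 array is assumed to vary like the BFC012 pair, whose arrays lay closer together, and the spread of OP9M2 is left out. In 3 of the 17 probe sets OP9M2 replicate 2 was higher than replicate 1 by at least 1 log2 unit (Phex 1421979_at and both probe sets of Tnfrsf11b), beside 3.18% of all probe sets, and in 1 (Dlx3 1450475_at) replicate 1 was higher by that much, beside 3.14% of all. The 3 gaps towards replicate 2 ran from 1.93 to 3.06 log2 units, and 2 of them belong to 1 gene, Tnfrsf11b. Between the BFC012 arrays the widest gap among the 17 was 0.70, in Dlx5. Markers of other mesenchymal fates also differed between the OP9M2 arrays. The summed level of 4 adipocyte markers was 14.9 and 13.5 in OP9M2, against 8.04 and 7.95 in BFC012. Of the 4, 2 were called higher (Pparg and Fabp4), beside 2.36% of all genes. Cebpa read 12.69 and 8.92 in OP9M2, against 6.55 and 6.6 in BFC012, and was not called. The defining adipocyte hormone Adipoq read 12.84 and 5.41 in OP9M2, against 3.99 and 3.39 in BFC012. This gap ran towards replicate 1, opposite to that of Phex and Tnfrsf11b. The summed level of 6 chondrocyte markers was 12.2 and 13.3 in OP9M2, against 8.07 and 8.15 in BFC012. Of the 6, 2 were called higher (Sox9 and Col2a1), again beside 2.36% of all genes, and Acan, Col10a1 and Matn1 were below background on every array. The sum followed its brightest gene, Col2a1 (11.76 and 13.12 in OP9M2), the 1 marker at least 1 log2 higher on replicate 2. Comp (7.69 and 5.87 in OP9M2) was the 1 marker higher by that much on replicate 1. The part of these markers, and of the array that stood apart in poly-A control and 18S ribosomal RNA signal, in the results for Phex and Tnfrsf11b was not tested.

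**Figure D3:**
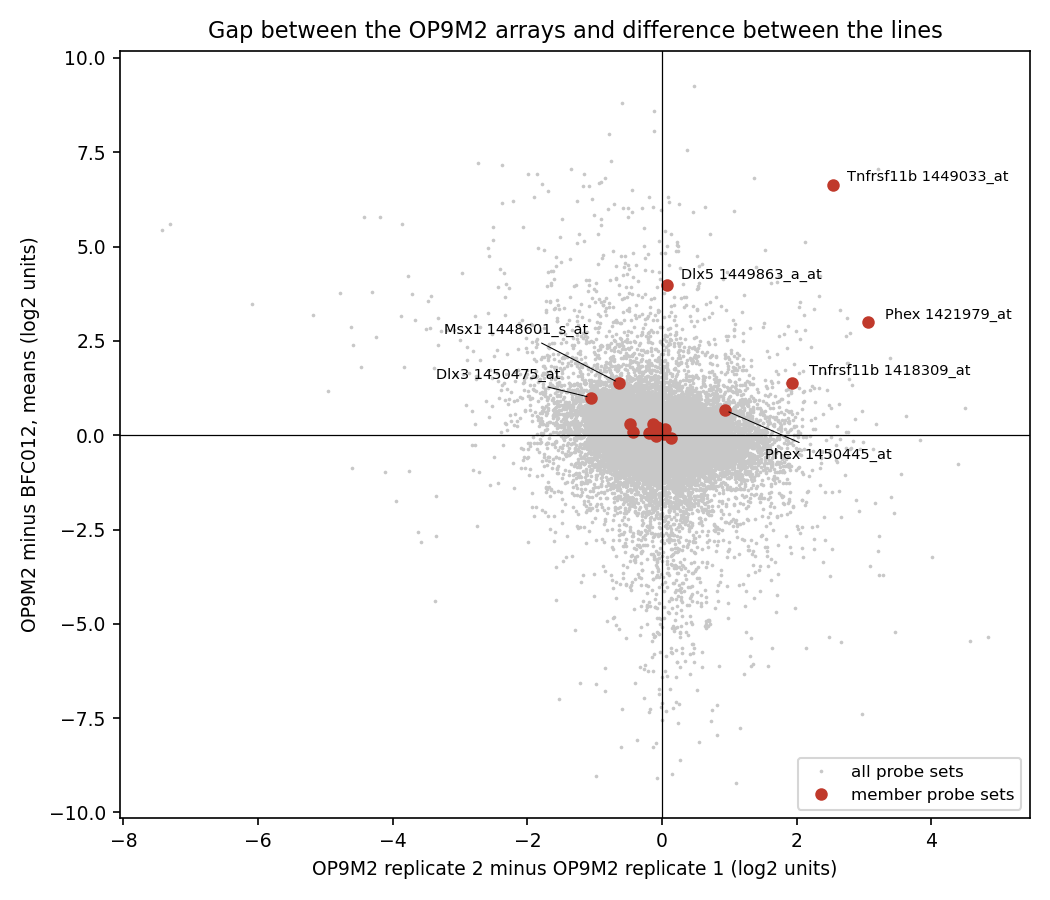
For each probe set, the gap between the OP9M2 arrays (replicate 2 minus replicate 1, log2 units, horizontal axis) and the difference between the lines (OP9M2 minus BFC012, log2 units, vertical axis), with all probe sets in grey and the 17 described in red. Dlx5 lies near a gap of 0 with a difference of 3.98, and Phex 1421979_at and both Tnfrsf11b probe sets lie at gaps of 1.93 to 3.06.

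**Figure D4:**
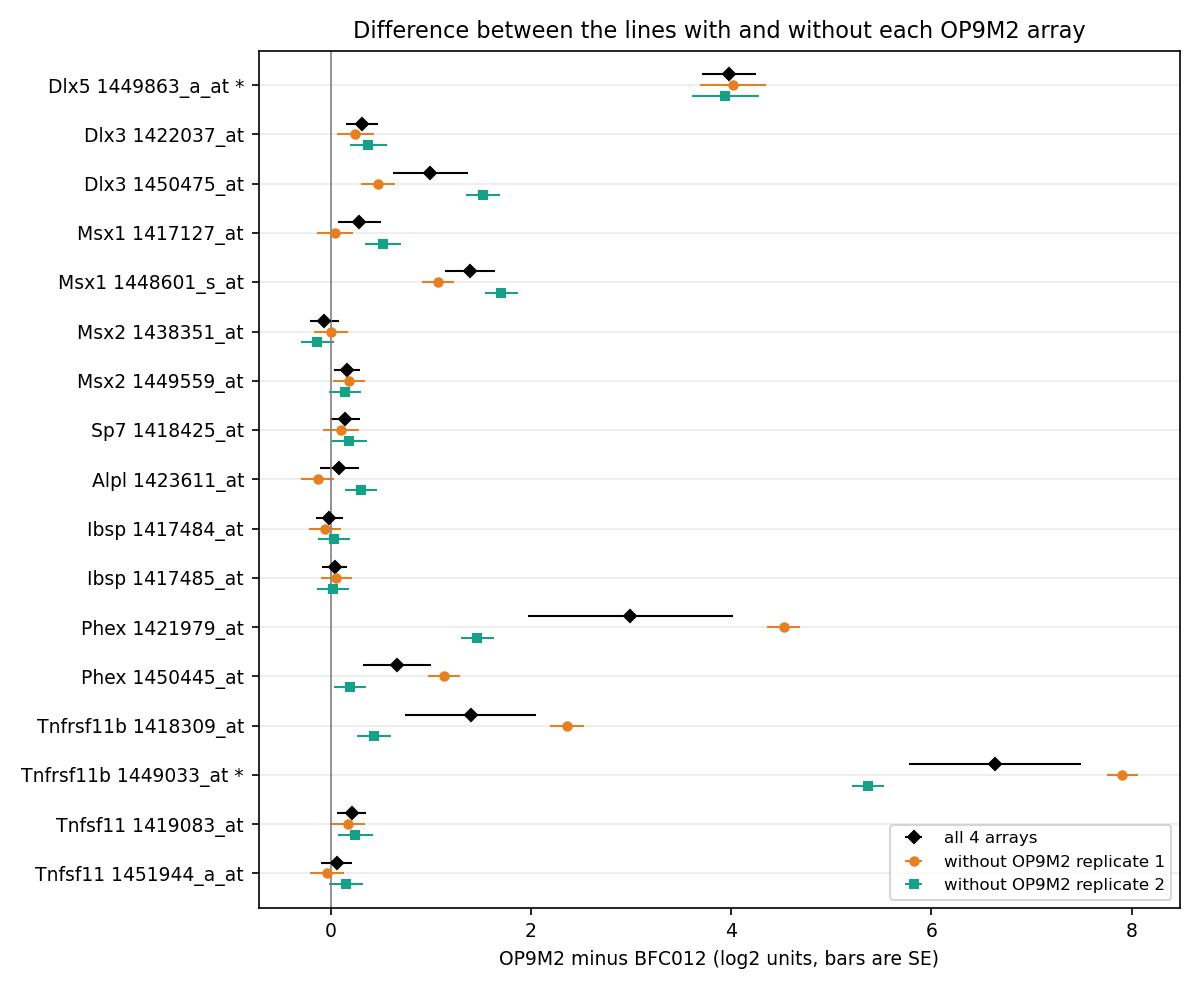
Difference between the lines (OP9M2 minus BFC012, log2 units, bars are the SE) for the 17 probe sets with all 4 arrays (black), without OP9M2 replicate 1 (orange) and without OP9M2 replicate 2 (green), with an asterisk on probe sets called with all arrays. Dlx5 stayed between 3.94 and 4.02, while Tnfrsf11b 1449033_at ran between 5.37 and 7.91 and Phex 1421979_at between 1.46 and 4.52.

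The other genes of the same pathways, 1 probe set a gene, moved in both directions. Of 17 further osteoblast regulators 14 were measured, of which 2 were called higher (Dlx4 and Dlx6) and 1 lower (Dlx2) in OP9M2, with a median difference of -0.16 beside 0.03 over all genes. Over all genes 2.36% were called higher and 3.56% lower, and at an unadjusted p under 0.05 10.5% were higher and 12.8% lower. At that p in limma, 2 of the 14 regulators were higher and 5 lower in OP9M2. Of those not called, the brightest were the stress-response factor Atf4 (-0.22), the Runx partner subunit Cbfb (-0.81, adjusted p = 0.0531) and the AP-1 factor Fosl2 (-0.21). The other 3 were not analysed here.

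Among the bone matrix and mineralization genes 19 of 25 were measured, with 1 called higher, 4 lower and a median of -0.21. At an unadjusted p under 0.05 in limma 2 were higher and 4 lower. Col1a2, a chain of type I collagen, was the one that was called higher, by 8.07 ± 0.14 (adjusted p = 0.00105 by limma). It read 14.25 and 14.14 in OP9M2, against 6.18 and 6.07 in BFC012, close to the background level. The other chain, Col1a1, named for this link, read 12.78 and 12.14 in OP9M2, against 13.06 and 13.12 in BFC012. Its difference of -0.63 was not called, so only 1 chain of this collagen was higher in OP9M2. Smpd3, a sphingomyelinase needed for mineralization of the skeleton, read 6.72 and 7.20 in OP9M2, against 10.01 and 10.13 in BFC012, and was lower in OP9M2 (-3.11 ± 0.21, adjusted p = 0.00559) in all 3 of its probe sets. Bmp1, the protease that trims procollagen, differed by -1.77 ± 0.16 (adjusted p = 0.0117) and the phosphate transporter Slc20a2 by -1.12 ± 0.18 (adjusted p = 0.0463). The proteoglycan Dcn read 5.62 and 6.04 in OP9M2, against 11.73 and 12.60 in BFC012, and was at least 67.3-fold lower in OP9M2 (-6.34 ± 0.35, adjusted p = 0.00355). Biglycan (Bgn), Sparc and the crosslinking enzyme Lox, abundant matrix products of many stromal cells, differed by 0.44, -0.25 and -0.04 and were not called. Bglap, Bglap2, Bglap3, Spp1, Phospho1 and Enpp1 were not analysed here.

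Of 5 osteocyte genes 0 were called higher or lower, with a median of 0.01, and Dmp1, Mepe, Sost and Fgf23 were below background on all arrays. Pdpn, a surface glycoprotein of early osteocytes and other cells, read 10.56 and 10.99 in OP9M2, against 11.91 and 12.07 in BFC012 (-1.22, adjusted p = 0.0510). Without the adjustment, Pdpn and Dmp1 had p under 0.05 in limma. Of 12 osteoclast-directed signals and their receptors 0 were called higher and 2 lower (1 and 2 at an unadjusted p under 0.05 in limma), with a median of -0.13. Sema3a, a secreted protein that restrains osteoclasts, read 7.84 and 7.71 in OP9M2, against 11.58 and 11.57 in BFC012 (-3.80 ± 0.14, adjusted p = 0.00157). Efnb2, an ephrin that signals between osteoclasts and osteoblasts, read 6.74 and 8.43 in OP9M2, against 12.18 and 12.35 in BFC012 (-4.68 ± 0.58, adjusted p = 0.0260). Csf1, the growth factor that osteoclast precursors need beside Tnfsf11, read 11.17 and 11.58 in OP9M2, against 11.34 and 10.86 in BFC012, with overlapping groups (0.28, adjusted p = 0.642). Wnt5a (-0.37) and the prostaglandin receptor Ptger4 (0.44) were not called, but their OP9M2 arrays lay far apart. Wnt5a read 7.945 and 11.08 in OP9M2, 1 below and 1 above both BFC012 arrays (9.455 and 10.31). Ptger4 ran the other way, at 10.15 and 8.70 in OP9M2, against 9.47 and 8.51 in BFC012.

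Of 16 genes of BMP signalling, the pathway that switches on Dlx and Msx genes in many tissues, 0 were called higher and 2 lower (3 and 6 at an unadjusted p under 0.05 in limma), with a median of 0.05. With any probe set counted 4 were called lower, beside 4.52% of all genes: Bmpr1a and Smad1, a receptor and a signal transducer named after their values were seen, each had other probe sets called lower. Bmp4 read 10.71 and 11.61 in OP9M2, against 13.29 and 13.21 in BFC012, and was lower in OP9M2 (-2.09 ± 0.33, adjusted p = 0.0458). The BMP antagonist Grem1 read 5.18 and 5.06 in OP9M2, against 10.59 and 10.37 in BFC012, and was at least 20.9-fold lower in OP9M2 (-5.35 ± 0.15, adjusted p = 0.00113). The early BMP targets Id3 (-0.42) and Id1 (-1.0) and the receptor Bmpr2 (-0.12) were not called. Of 12 osteoclast markers, with a median of 0.12, 0 were called higher (2 at an unadjusted p under 0.05 in limma) and 1 lower, Tcirg1, a proton pump subunit (-1.57 ± 0.15, adjusted p = 0.0140). The osteoclast enzyme Acp5 and the calcitonin receptor Calcr were among 6 of these 12 genes with no array above background, and Clcn7, Nfatc1 and Itgb3, which other cells also use, were above it in both lines and not called. Ctsk, another of the 12, was also above background on all 4 arrays. It read 8.10 and 7.38 in OP9M2, against 6.68 and 6.62 in BFC012 (1.085, adjusted p = 0.125 by limma). The 2 markers with an unadjusted p under 0.05 were Ctsk and Itgb3 (1.87, adjusted p = 0.101 by limma), beside 10.5% of all genes.

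**Figure D5:**
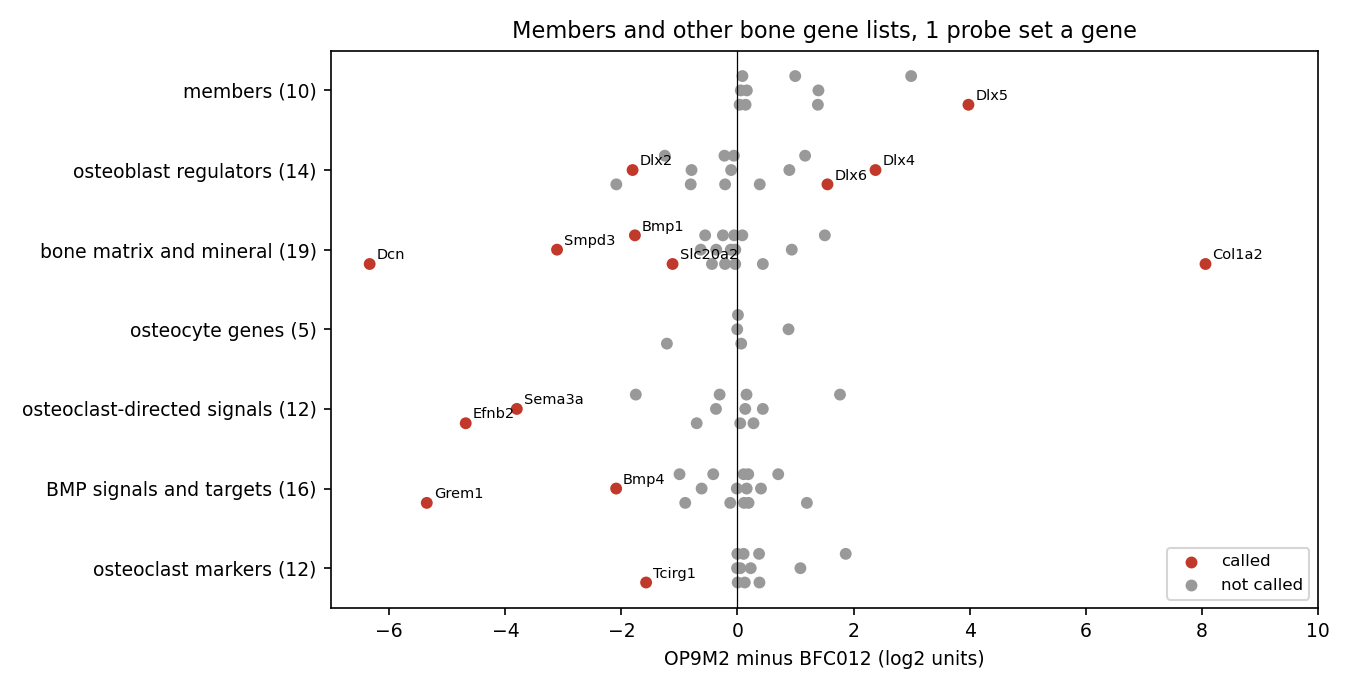
Difference between the lines (OP9M2 minus BFC012, log2 units, horizontal axis), 1 probe set a gene, for the 10 genes described (top row, labelled members) and 6 lists of related genes, with the number measured in brackets. Called genes are red and named, and the others are grey; Col1a2 lies farthest to the right at 8.07 and Dcn farthest to the left at -6.34.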

How the data were processed

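Total RNA of 1 culture plate a sample was amplified with an Ambion kit and hybridised to Affymetrix mouse arrays, 2 for each line. The deposited values are intensities made by the authors with RMA and the affy package, in a table of 1 value per probe set and array; settings: not given in the sources used here. On each array 6.31% to 6.57% of them exceeded 65535, the scanner maximum, and their natural logarithms ran from 2.06 to 14.9. For this reason the natural logarithm was taken to be the log2 value that RMA gives. The base is not stated, so the scale is uncertain: taking log2 of the deposited values instead multiplies every difference by 1.44 and leaves each adjusted p as it is. After leaving out 64 controls, 45037 probe sets were tested with lmFit and eBayes of limma 3.58.1 under R 4.3.3 (OP9M2 minus BFC012, no covariate, both directions, Benjamini-Hochberg adjustment over all 45037). The test had 2 residual degrees of freedom, and was also tested on simulated data. Calls needed adjusted p below 0.05 together with a change of 1 log2 unit or more. Each gene was read from its brightest probe set, averaged over the 4 arrays, among the 34945 probe sets that named 1 gene. Where a line exceeded background on neither array, "at least" folds set the brighter mean against the background level. A summed level is the log2 of the sum of unlogged values of a list. Named were all 10 genes with every probe set; from each list the called genes and the 3 brightest that were not called; and the 3 genes most like a called one. The genes and lists were chosen with earlier results of these data known. The number of arrays limits the precision. Alternatives covered the log base, normalization, a filter on dim probe sets, the variance model, array weights, the replicate number as a block, the choice of probe set, the fold threshold and leaving out each array.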

Additional observations from a re-analysis of the deposited data

How the results depend on the processing

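Of the 17 probe sets 2 were called, and 2008 on the whole array. The number of the 10 genes called was 1, and became 2 under quantile normalization, under the filter on dim probe sets with background at the 95th or 99th percentile, and under array weights, where Msx1 was added. With the replicate number as a block 1 of the 17 probe sets and 707 of all were called; Tnfrsf11b 1449033_at lost its call there (adjusted p = 0.0771). Same-numbered arrays share only a number: their deviations correlated at -0.10. With crossed pairing, chosen after seeing the data, 2 of the 17 and 1377 of all were called. Leaving out 1 array at a time gave 0 to 6 of the 17 probe sets, 0 to 4 of the 10 genes and 0 to 4437 of all probe sets; the highest counts came from leaving out an OP9M2 array, with the spread of the BFC012 pair alone, and the 0 from leaving out a BFC012 array, where the smallest adjusted p over all probe sets was 0.0826 and 0.0903. Dlx5 was called in 14 of 16 alternative settings, Tnfrsf11b 1449033_at in 12 of 15 and Msx1 1448601_s_at in 6 of 15. With background at the 90th and 99th percentile the lowest fold was 7.22 and 3.35 for Dlx5, 2.17 and 1.00 for Dlx3 1450475_at and 8.86 and 4.10 for Tnfrsf11b 1449033_at. Differences near 0 that were not called changed sign: without 1 array Msx2 1438351_at ran from -0.144 to 0.0101, Alpl from -0.133 to 0.303, Ibsp 1417484_at from -0.0606 to 0.0325 and Tnfsf11 1451944_a_at from -0.0395 to 0.153, and Ibsp 1417485_at was -0.0105 under quantile normalization. Of 250 values of single probe sets under alternatives, 223 kept direction and call or, for a lowest fold, stayed within 1 SD. This count overstates stability, because some alternatives could not change a direction. The log base only rescales the differences, and the filters and variance models leave each difference as it was. A probe set that was not called also counts as kept when it stays so. The causes were not tested. Signal limits Msx2, Ibsp and Tnfsf11, which were below background on every array. It also limits Alpl, which was below the 99th percentile level on every array.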

Other observations

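Ece1, the endothelin-converting enzyme that lies beside Alpl on chromosome 4 and was picked after its values were seen, read 10.38 and 10.32 in OP9M2, against 8.91 and 8.81 in BFC012, a difference of 1.49 ± 0.13 (2.80-fold, adjusted p = 0.0116 by limma). Alpl itself was not called. Il6, a cytokine that acts on osteoclasts and was also picked after its values were seen, read 8.63 and 4.67 in OP9M2, against 8.31 and 8.49 in BFC012. OP9M2 replicate 2 alone was below background for Il6, and the difference was not called (adjusted p = 0.574).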
